A study of Mus musculus with 16 samples.

Results

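The transcriptomes of B16F10 tumors treated with anti-PD1 alone were compared with those of vehicle tumors, 8 of the 16 tumors of the study and 4 in each group. The members were taken by their treatment labels, Vehicle and PD1 mAb, and the comparison covered the 12850 of 18929 listed genes that reached 0.5 FPKM in at least 4 of the 16 tumors. The columns of the table are named FPKM, the number of sequenced fragments of a gene scaled to its transcript length and to the library size. B16F10 is a line of melanoma cells from C57BL/6 mice, which also serve as its hosts. Female mice aged 7 to 8 weeks were treated once their tumors had reached about 50 cubic mm, and the treatment lasted 9 to 11 days. The vehicle group received corn oil with an isotype control antibody, and the anti-PD1 group received an antibody against the receptor PD1. The remaining groups received α-KG at 100 mg per kg or α-KG + anti-PD1, again with 4 tumors each. Their 8 tumors entered the filter, the estimate of the spread between tumors and 1 further comparison below. All tumors came from a single transplanted cell line in hosts with an intact immune system, and RNA was taken from whole tumors, so that tumor cells and host cells were measured together. The tumors of a group are described as independent, and no batch is named.

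PD-1, encoded by Pdcd1, is an inhibitory receptor on activated T cells. Its ligand PD-L1, encoded by Cd274, is displayed by tumor cells and by myeloid cells and is induced by interferon gamma. Antibodies against PD1 block this brake, after which T cells may release interferon gamma, and cells that receive it switch on IRF1, antigen presentation genes and chemokines that attract further T cells. B16F10 is known as poorly immunogenic, with little antigen presentation at rest, few infiltrating T cells and a weak response to PD1 blockade alone.

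Without read counts the depth behind each value is unknown, and precision is lowest for genes near or below 1 FPKM. The sum of FPKM over all genes ranged from 578171 to 635205 in vehicle and from 549740 to 651386 in anti-PD1 tumors. Between 15890 and 16194 genes were above 0 in the former and between 16054 and 16159 in the latter. The label of melanoma was met by its defining genes, with the melanosome gene Pmel at 1956 to 2800 FPKM in vehicle and at 2215 to 2812 FPKM in anti-PD1 tumors. Genes of hemoglobin, a sign of blood in the tissue, took 10.9% to 16.8% of the FPKM sum in vehicle and 4.23% to 22.2% in anti-PD1 tumors.

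Anti-PD1 alone went with a small set of changed genes. On the log2(FPKM + 1) scale, limma with Benjamini-Hochberg adjustment over all genes tested called 96 genes (0.747%) at an adjusted p under 0.05. Among them, 60 genes (0.467%) were higher and 36 genes (0.28%) were lower after anti-PD1. Macrophage and myeloid genes led the higher genes, and skeletal muscle genes led the lower genes. No gene of the T-cell, cytotoxic, interferon or antigen presentation lists below was called. The called higher genes had log2 fold changes between 0.44 and 2.36 with a median of 1.52, and the called lower genes lay between -5.00 and -0.31 with a median of -0.98. In all 96 called genes the values of the groups did not overlap, and over all genes tested this held for 1106 genes (8.61%), 642 higher (5%) and 464 lower (3.61%). At an unadjusted limma p under 0.05 there were 2130 genes (16.6%), 1282 higher (9.98%) and 848 lower (6.6%). Over all genes the median log2 fold change was 0.03, the median absolute value was 0.13 and the median 95% confidence interval reached 0.26 to either side of the estimate.

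The calls depended on single tumors. Limma called 0 genes without vehicle tumor 3 (1240 genes at an unadjusted p under 0.05), vehicle tumor 4 (1220 genes), anti-PD1 tumor 2 (1630 genes), anti-PD1 tumor 3 (1493 genes) or anti-PD1 tumor 4 (1877 genes), and it called 885 genes without vehicle tumor 1, 127 without vehicle tumor 2 and 77 without anti-PD1 tumor 1. All 96 called genes kept their direction in each of these 8 fits, which was fixed in advance, since their groups did not overlap. They also rested on the spread shared with the other 8 tumors, since a fit of only the vehicle and anti-PD1 tumors called 0 genes (2137 at an unadjusted limma p under 0.05). With limma's array weights, which gave vehicle tumor 1 the lowest weight of these 8 tumors (0.28) and vehicle tumor 3 the highest (3.74), 4261 genes (33.2%) were called. Among them were 11 of 17 T-cell, 9 of 13 cytotoxic, 14 of 15 GTPase, 16 of 16 MHC class I and 8 of 11 MHC class II genes of the lists below, all higher, for which the fit with equal weights called 0. The genes named below that did not pass but were called without vehicle tumor 1 included Cd274, Nkg7, Itgax, Adgre1, Csf1r, Ly6c2, Mrc1, Gbp2, Psmb8, H2-Aa, H2-Ab1, Mitf, Irf8, Slc4a1, Bnip3, Zbp1, Entpd1 and Myh4, of which Slc4a1 was also called without vehicle tumor 2. The split between higher and lower genes moved with the scaling, with 15 higher and 14 lower when every tumor was brought to the same FPKM sum, and 72 higher and 26 lower when that was done without the hemoglobin genes.

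**Figure D1:**
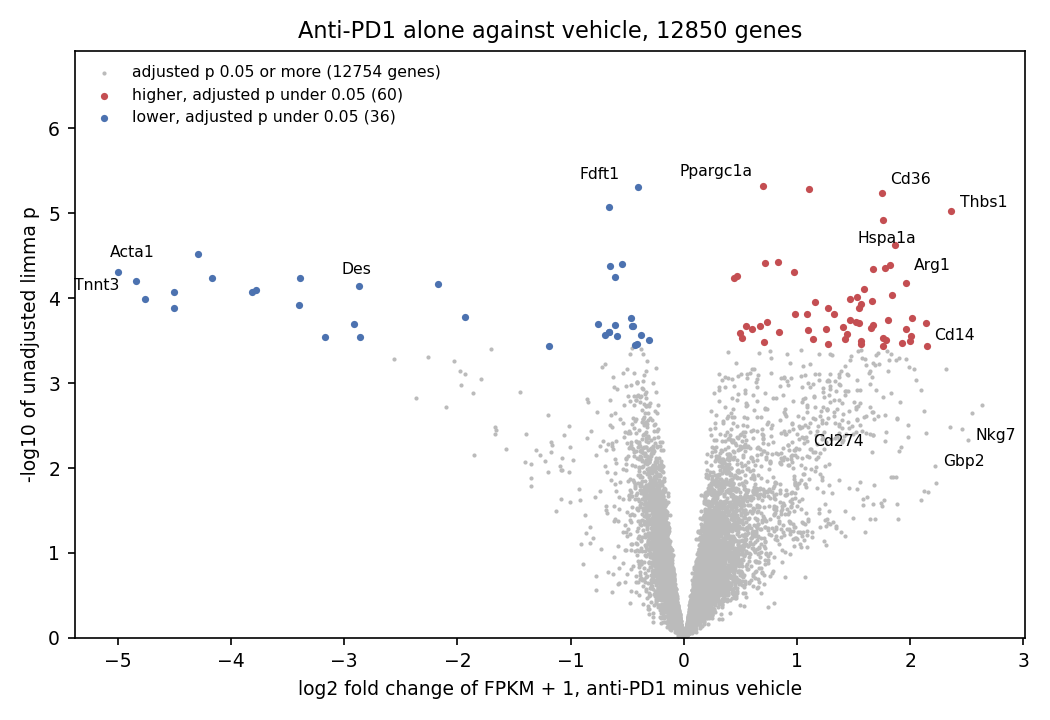
Each point is 1 of the 12850 genes tested, with the log2 fold change of FPKM + 1 (anti-PD1 minus vehicle) on the x axis and -log10 of the unadjusted limma p on the y axis. The 60 higher genes (red) include Thbs1, Cd14, Arg1 and Cd36, the 36 lower genes (blue) include Acta1 and Tnnt3 on the far left, and Nkg7, Gbp2 and Cd274 lie among the genes that did not pass (gray).

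Markers of macrophages and monocytes were higher in anti-PD1 tumors as a group. All 14 markers had a positive log2 fold change, all 14 had an unadjusted limma p under 0.05, 9 separated the groups and 4 were called, among them Cd14, Lyz2 and Cd68. Their median log2 fold change was 1.66, beside 0.03 over all genes. Lyz2, which encodes the lysozyme of macrophages and neutrophils, was at 130, 99.7, 36.5 and 44.0 FPKM in vehicle tumors 1 to 4 and at 211, 234, 304 and 332 FPKM in anti-PD1 tumors 1 to 4. Vehicle tumors 1 and 2 lay above vehicle tumors 3 and 4, and every anti-PD1 tumor lay above all of them. The mean rose from 77.4 ± 44.7 to 270 ± 57 FPKM (SD, n = 4), a log2 fold change of 1.96 (standard error, SE, 0.41, limma adjusted p = 0.0441).

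Cd14, the co-receptor for bacterial lipopolysaccharide, was at 3.19, 8.30, 2.02 and 2.88 FPKM in the vehicle tumors and at 13.3, 40.1, 11.7 and 21.9 FPKM in the anti-PD1 tumors, without overlap. Its log2 fold change was 2.14 (SE 0.44, limma adjusted p = 0.0441), and anti-PD1 tumor 2 was the highest of the 8. Cd68, a glycoprotein of the macrophage lysosome, was at 103, 60.1, 30.7 and 31.8 FPKM in vehicle and at 112, 143, 181 and 170 FPKM in anti-PD1 tumors. Vehicle tumor 1 lay just under anti-PD1 tumor 1, and the log2 fold change was 1.57 (SE 0.34, limma adjusted p = 0.0472). Csf1r, the receptor for the growth factor on which macrophages depend, showed the same order without passing the test. It was at 11.1, 6.03, 1.74 and 2.01 FPKM in vehicle and at 11.5, 15.8, 19.3 and 14.7 FPKM in anti-PD1 tumors, with a log2 fold change of 1.65 (SE 0.41, limma adjusted p = 0.0654). Adgre1, which encodes the macrophage antigen F4/80, overlapped between the groups through vehicle tumor 1 (7.81 FPKM, against 6.59 FPKM in anti-PD1 tumor 1) and had a log2 fold change of 1.50 with a limma adjusted p of 0.0761. Ly6c2, which marks inflammatory monocytes, had the highest log2 fold change of the list, 2.32 (limma adjusted p = 0.0608).

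Summed over the 14 markers, the level was 634, 366, 139 and 159 FPKM in the vehicle tumors and 675, 930, 1177 and 1016 FPKM in the anti-PD1 tumors. The groups were closest at vehicle tumor 1 and anti-PD1 tumor 1, while vehicle tumors 3 and 4 were far lower. In whole tumors, fewer cells of a type and less RNA per cell cannot be told apart. No marker of the list was called without vehicle tumor 3 or 4 or without anti-PD1 tumor 2, 3 or 4, and all 14 were called without vehicle tumor 1. The median of the list stayed between 1.34 (without vehicle tumor 3) and 2.03 (without vehicle tumor 1).

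Genes that other leukocytes share followed the same order of tumors. Of 10 pan-leukocyte genes, 9 had an unadjusted limma p under 0.05, 6 separated the groups and Cd53, a tetraspanin of leukocytes, was called, with a median of 1.53 for the list. Among 7 Fc gamma receptor genes and their partners, which let myeloid cells bind antibody, 6 had an unadjusted limma p under 0.05, 5 separated the groups, 0 were called and the median was 1.69. Of the 7 genes of alternatively activated macrophages that were tested, 1 was called, Arg1. Arg1 encodes arginase, which depletes the arginine that T cells need. It was at 20.7, 20.5, 7.78 and 6.31 FPKM in vehicle and at 41.6, 37.3, 63.2 and 64.6 FPKM in anti-PD1 tumors, so that the lowest anti-PD1 tumor was above the highest vehicle tumor. The log2 fold change was 1.96 (SE 0.36, limma adjusted p = 0.0334). Mrc1, the mannose receptor of the same list, overlapped between the groups and had a log2 fold change of 1.11 (limma adjusted p = 0.108). Neither Arg1 nor Cd53 was called without vehicle tumor 3 or 4 or without anti-PD1 tumor 2, 3 or 4.

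Of the 10 genes with the largest called rise, Arg1, Lyz2 and Cd14 are described above, and the other 7 were Thbs1, Tgm2, Ccl6, Il1rn, Mmp12, Clec4n and Clec4d. Thbs1, which encodes the matrix protein thrombospondin 1, had the largest log2 fold change of the called genes. It was at 6.53, 13.6, 3.59 and 3.55 FPKM in vehicle and at 28.4, 49.0, 27.2 and 37.7 FPKM in anti-PD1 tumors. The groups stood well apart, with a log2 fold change of 2.36 (SE 0.37, limma adjusted p = 0.0203). Tgm2, which encodes a transglutaminase found in macrophages, rose from a mean of 4.61 ± 3.60 to 21.8 ± 10.3 FPKM (SD, n = 4), with vehicle tumor 1 at 9.11 FPKM close under anti-PD1 tumor 1 at 10.9 FPKM. The chemokine gene Ccl6 rose from 40.6 ± 24.2 to 148 ± 41.2 FPKM, and the elastase gene Mmp12 rose from 24.1 ± 17.8 to 79.8 ± 16.6 FPKM. Il1rn, which encodes the natural antagonist of the interleukin-1 receptor, rose from 6.18 ± 4.26 to 25 ± 7.24 FPKM. Clec4n and Clec4d, which encode the myeloid lectins dectin-2 and MCL for microbial sugars, had log2 fold changes of 1.92 and 1.86. The limma adjusted p values of these 7 genes lay between 0.0203 and 0.0486, and 0 of them were called without vehicle tumor 3 or 4 or without anti-PD1 tumor 2, 3 or 4.

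A group of called genes chosen after their values were seen belongs to the handling of lipid and to the lysosome, functions for which lipid-laden macrophages are known. Of 20 such genes, listed for the same reason, 9 were called (Trem2, Cd36, Msr1, Abca1, Plin2, Nceh1, Spp1, Ctsl and Hexa), 16 had an unadjusted limma p under 0.05 and 11 separated the groups. Cd36, a scavenger receptor that takes up oxidized lipoprotein, was at 9.57, 7.28, 3.15 and 4.88 FPKM in vehicle and at 16.6, 19.0, 28.2 and 25.4 FPKM in anti-PD1 tumors. Every anti-PD1 tumor was well above every vehicle tumor, and the log2 fold change was 1.75 (SE 0.26, limma adjusted p = 0.0184). Trem2, a lipid-sensing receptor of tumor-associated macrophages, was at 11.9, 6.81, 2.86 and 3.86 FPKM in vehicle and at 16.4, 17.3, 23.9 and 23.7 FPKM in anti-PD1 tumors. It did not overlap, with a log2 fold change of 1.68 (SE 0.30, limma adjusted p = 0.0322). Spp1, the gene of the secreted protein osteopontin, rose from 40.4 ± 18.2 to 123 ± 32.3 FPKM (SD, n = 4). Smaller rises were those of Plin2, which coats lipid droplets (log2 fold change 0.72), Nceh1, a cholesterol ester hydrolase (0.44), Ctsl, a lysosomal protease (0.98), Hexa, a lysosomal hexosaminidase (0.50), Abca1, a cholesterol exporter (1.15) and Msr1, a scavenger receptor (1.56). The summed macrophage markers moved with these genes, from 139 to 634 FPKM in vehicle and from 675 to 1177 FPKM in anti-PD1 tumors, and their part in the result was not tested. No gene of the 20 was called without vehicle tumor 3 or 4 or without anti-PD1 tumor 2, 3 or 4.

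**Figure D2:**
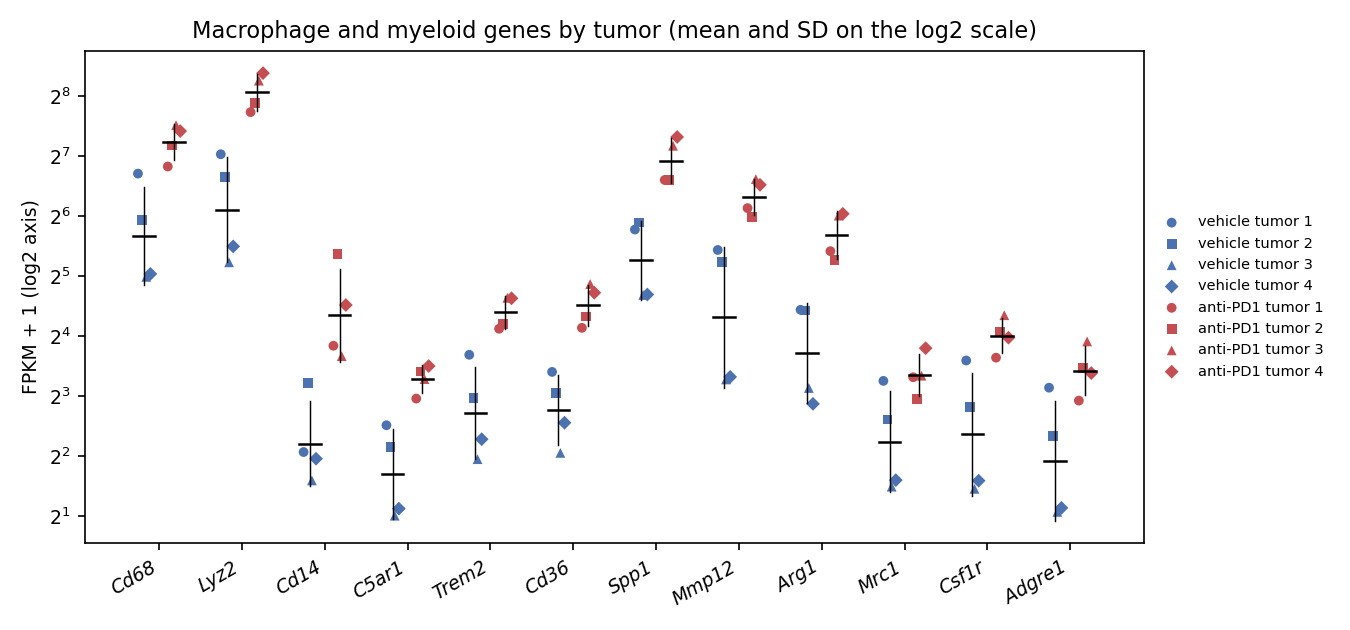
FPKM + 1 of 12 macrophage and myeloid genes in each tumor on a log2 axis, vehicle in blue and anti-PD1 in red, with 1 symbol per tumor, the mean as a horizontal bar and the SD on the log2 scale as a vertical line (n = 4). Vehicle tumors 1 and 2 (circle and square) lie above vehicle tumors 3 and 4 for most genes, and the groups overlap only for Mrc1 and Adgre1. This follows largely from the choice of genes, since most of them were called and all 96 called genes separated the groups. Over the whole lists, 9 of 14 macrophage and monocyte markers and 3 of 7 alternatively activated macrophage genes separated the groups.

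The target of the antibody and its ligands were measured at low to moderate levels. Pdcd1 (PD-1) was at 0.69, 0.72, 0 and 0.07 FPKM in the vehicle tumors and at 0.60, 3.93, 5.10 and 1.25 FPKM in the anti-PD1 tumors. Anti-PD1 tumors 2 and 3 were high, while anti-PD1 tumor 1 lay within the vehicle range, and the log2 fold change of 1.28 (SE 0.54) did not pass the test (limma adjusted p = 0.254). Cd274 (PD-L1) was at 7.63, 4.19, 3.14 and 2.66 FPKM in vehicle and at 6.49, 13.9, 12.4 and 7.85 FPKM in anti-PD1 tumors. Only vehicle tumor 1 and anti-PD1 tumor 1 overlapped, and the log2 fold change of 1.07 (SE 0.31) had a limma adjusted p of 0.0987. Pdcd1lg2, the gene of the other ligand PD-L2, was under 0.6 FPKM in all 8 tumors.

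T-cell and cytotoxic genes had positive fold changes with wide spread between tumors, and limma called 0 of them. Of the 17 genes of the T-cell receptor complex and its co-receptors, all were positive, 5 had an unadjusted limma p under 0.05 and 6 separated the groups, with a median of 0.86. Of the 13 cytotoxic effector genes, all were positive, 4 had an unadjusted limma p under 0.05 and 3 separated the groups, with a median of 1.04. Cd3e, a chain of the T-cell receptor complex, was at 0.98, 0.50, 0.09 and 0.18 FPKM in vehicle and at 1.18, 2.37, 2.77 and 1.18 FPKM in anti-PD1 tumors. The groups did not overlap, but the log2 fold change of 1.00 (SE 0.51) did not pass the test (limma adjusted p = 0.34).

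Cd8a, the co-receptor of cytotoxic T cells, was at 1.13, 0.68, 0.07 and 0.16 FPKM in vehicle and at 0.61, 3.40, 4.85 and 2.04 FPKM in anti-PD1 tumors, where tumor 1 fell within the vehicle range (log2 fold change 1.21, limma adjusted p = 0.301). Nkg7, a granule gene of killer cells, was at 3.82, 2.49, 0.09 and 0 FPKM in vehicle and at 3.94, 14.9, 23.6 and 8.91 FPKM in anti-PD1 tumors. It separated the groups by the narrow gap between vehicle tumor 1 and anti-PD1 tumor 1, with a log2 fold change of 2.51 (SE 0.76, limma adjusted p = 0.116). Without vehicle tumor 1, 1 of the 13 cytotoxic genes was called. Gzmb, the protease granzyme B, was at 4.51, 3.19, 0.09 and 0.31 FPKM in vehicle and at 2.26, 11.3, 17.1 and 3.27 FPKM in anti-PD1 tumors. Vehicle tumor 1 was above anti-PD1 tumors 1 and 4, and the log2 fold change was 1.64 (SE 0.73, limma adjusted p = 0.277). Ifng, the gene of interferon gamma itself, reached 2.42 FPKM at most, in anti-PD1 tumor 3, and had a log2 fold change of 0.74 (limma adjusted p = 0.437). Of 11 inhibitory receptors and exhaustion factors, limma called 0, 4 had an unadjusted p under 0.05 and the median was 0.72, with Lag3 at 1.05 and Havcr2 (TIM-3) at 0.96.

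Chemokines that attract T cells, and their receptors, gave 2 calls among 9 genes, Ccl3 and Ccl4, both of which are made by macrophages as well as by T cells. Ccl3 rose from 8.81 ± 3.52 to 24.6 ± 3.74 FPKM (SD, n = 4) and Ccl4 from 6.75 ± 3.52 to 21.8 ± 4.42 FPKM, with log2 fold changes of 1.44 and 1.66 (limma adjusted p = 0.0463 and 0.0441). The groups did not overlap for either gene. Cxcl9, a chemokine induced by interferon gamma, was at 2.44, 1.41, 0.19 and 0.14 FPKM in vehicle and at 1.44, 6.86, 10.9 and 2.69 FPKM in anti-PD1 tumors, with overlap through tumor 1 of each group and a log2 fold change of 1.56 (limma adjusted p = 0.193). Cxcr3, the receptor of Cxcl9 and Cxcl10, was the lowest of the list with a log2 fold change of -0.39 (limma adjusted p = 0.289). Without vehicle tumor 3 or 4, or without anti-PD1 tumor 2, 3 or 4, 0 of the 9 genes were called.

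Genes induced by interferon showed the widest spread within the anti-PD1 group. The 5 genes with the largest SD over the 4 anti-PD1 tumors were Tgtp1, Apol9a, Gbp4, Iigp1 and Igtp, of which 4 encode GTPases induced by interferon that defend cells against intracellular microbes. The fifth, Apol9a, encodes an apolipoprotein L. To show what these promoters hold, the 250 bases before the annotated start of 4 genes are printed below from RefSeq (GRCm38.p6, 5′ to 3′ on the strand of the gene), since the submitters' processing notes name the build mm10. Capitals mark matches to GAAANNGAAA on either strand, a letter pattern like the interferon-stimulated response element, or to TTCNNNGAA, a pattern like the gamma-activated site that reads alike on both strands. Gbp2 (Gene ID 14469) lies on the plus strand with the printed window at chr3:142620413-142620662, Tgtp1 (21822) on the minus strand at chr11:48992247-48992496, Igtp (16145) on the plus strand at chr11:58199306-58199555, and Irf1 (16362), the transcription factor that binds such elements, on the plus strand at chr11:53769764-53770013.
Gbp2: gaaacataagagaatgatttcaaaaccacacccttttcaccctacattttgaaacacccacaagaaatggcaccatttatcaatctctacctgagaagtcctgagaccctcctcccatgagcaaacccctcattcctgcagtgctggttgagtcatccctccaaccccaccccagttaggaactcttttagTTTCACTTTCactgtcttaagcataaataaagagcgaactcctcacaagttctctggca
Tgtp1: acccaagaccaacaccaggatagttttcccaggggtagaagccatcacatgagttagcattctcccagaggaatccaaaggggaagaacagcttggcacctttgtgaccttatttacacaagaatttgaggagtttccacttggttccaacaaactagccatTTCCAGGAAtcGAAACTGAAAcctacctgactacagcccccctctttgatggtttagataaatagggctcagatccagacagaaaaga
Igtp: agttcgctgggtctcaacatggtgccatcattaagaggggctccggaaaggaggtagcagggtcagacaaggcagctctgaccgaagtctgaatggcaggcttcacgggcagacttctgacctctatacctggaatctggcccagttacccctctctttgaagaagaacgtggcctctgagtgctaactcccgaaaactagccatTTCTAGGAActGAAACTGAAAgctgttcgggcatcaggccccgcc
Irf1: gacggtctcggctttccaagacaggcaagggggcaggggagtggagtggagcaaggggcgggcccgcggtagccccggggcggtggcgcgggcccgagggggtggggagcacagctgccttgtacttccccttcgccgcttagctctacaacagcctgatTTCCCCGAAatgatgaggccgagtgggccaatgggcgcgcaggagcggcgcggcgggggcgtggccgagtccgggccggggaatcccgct

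In Tgtp1 and Igtp the GAS-like match was followed by the ISRE-like match, which began 77 and 34 bases before the start. In Gbp2 the ISRE-like match began 59 bases before the start, and in Irf1 the GAS-like match began 90 bases before the start. Irf1 had 2 promoters in the RefSeq table, and the printed one was chosen by its number of matches. Of the 15 interferon-induced GTPase genes, 9 had a promoter in the RefSeq table, and within 250 bases before to 50 bases after their starts 9 of 9 held GAAANNGAAA and 6 of 9 (66.7%) held TTCNNNGAA. Over all 27025 genes with such a window the shares were 3.99% and 9.55%. Of the 9 macrophage markers with a window, 0 held the former and 1 the latter. Among 16 antiviral genes with a window, 62.5% held GAAANNGAAA and 18.8% held TTCNNNGAA. For 14 MHC class I genes the shares were 28.6% and 7.14%, the latter below that over all genes. A match describes the letters of the window and was not tested for binding.

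The expression of these genes divided the anti-PD1 tumors. Gbp2, a guanylate-binding protein with the largest log2 fold change of the 15 GTPases, was at 11.6, 9.64, 0.69 and 0.98 FPKM in vehicle and at 6.09, 44.4, 53.8 and 10.9 FPKM in anti-PD1 tumors. Anti-PD1 tumors 2 and 3 stood far above the rest, anti-PD1 tumors 1 and 4 fell within or near the range of vehicle tumors 1 and 2, and vehicle tumors 3 and 4 were near 0. The log2 fold change was 2.22 (SE 0.75, limma adjusted p = 0.155). Tgtp1 was at 8.37, 6.56, 0.38 and 0.51 FPKM in vehicle and at 5.09, 40.9, 48.9 and 3.61 FPKM in anti-PD1 tumors. Anti-PD1 tumors 2 and 3 were again far above the rest, while anti-PD1 tumors 1 and 4 lay under vehicle tumors 1 and 2. The log2 fold change of Tgtp1 was 2.16 (SE 0.83, limma adjusted p = 0.209). Tgtp1 has a near-identical neighbor, Tgtp2, with which it may share reads. Igtp was at 16, 10.7, 1.31 and 1.05 FPKM in vehicle and at 6.11, 65.4, 64.8 and 9.96 FPKM in anti-PD1 tumors. Of the 15 GTPases, all were positive, 14 had an unadjusted limma p under 0.05, 0 separated the groups, 0 were called by limma, and the median was 1.53. Without vehicle tumor 1, 1 of them was called.

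The genes upstream of these targets had a lower median. Of 25 interferon receptor, JAK, STAT, IRF and SOCS genes, all were positive, 11 had an unadjusted limma p under 0.05, 0 were called and the median was 0.31. Irf1 had a log2 fold change of 1.26 (limma adjusted p = 0.278) and Irf8, a factor of myeloid cells, had the largest of the list, 1.78 (limma adjusted p = 0.108). Stat3, which serves cytokines of the interleukin-6 family, varied little, from 35.1 to 42.9 FPKM in vehicle and from 42.7 to 55.3 FPKM in anti-PD1 tumors. Of 20 antiviral genes induced mainly by type I interferon, 18 were positive, 8 had an unadjusted limma p under 0.05, 0 were called and the median was 0.61. Zbp1, a sensor of nucleic acid, was the highest at 1.92 and Isg15, a ubiquitin-like protein, the lowest at -0.34.

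**Figure D3:**
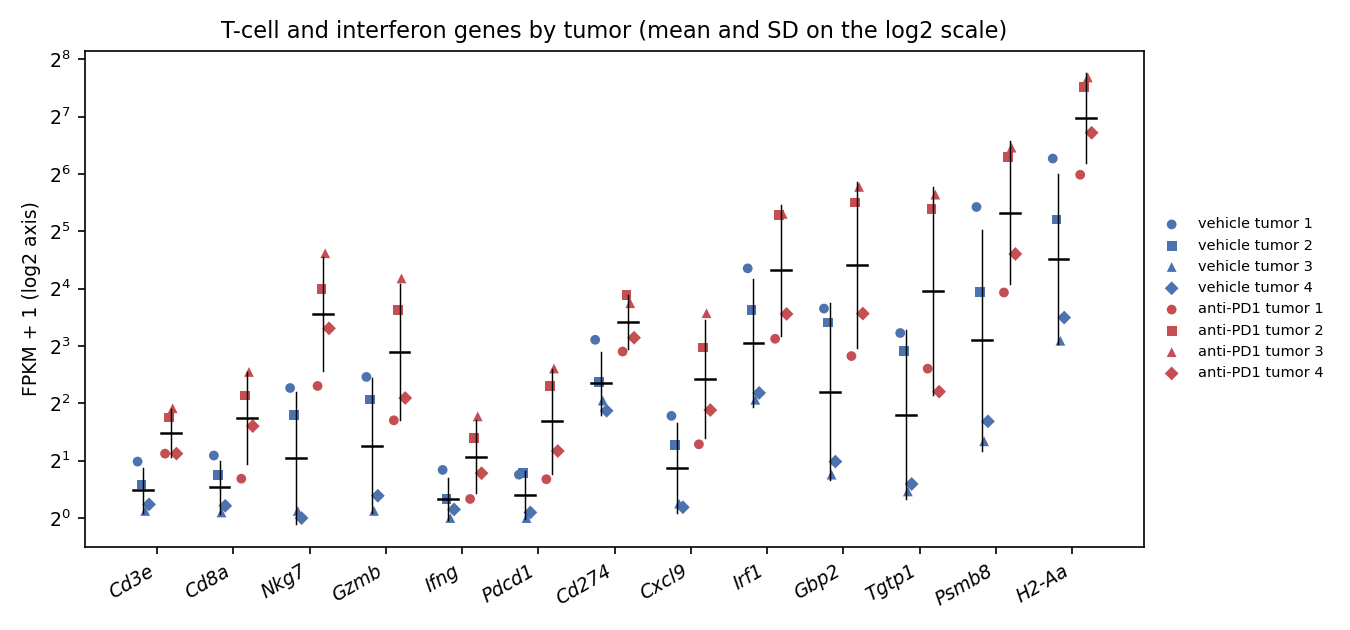
FPKM + 1 of 13 T-cell, interferon and antigen presentation genes in each tumor on a log2 axis, vehicle in blue and anti-PD1 in red, with 1 symbol per tumor, the mean as a horizontal bar and the SD on the log2 scale as a vertical line (n = 4). Anti-PD1 tumors 2 and 3 (square and triangle) are the highest, and vehicle tumors 3 and 4 are the lowest. Anti-PD1 tumor 1 (circle) mostly lies between or below vehicle tumors 1 and 2.

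MHC class II genes had the highest list median of the comparison, and neither they nor MHC class I genes passed. B2m, the light chain of MHC class I, was at 1455, 990, 269.9 and 286 FPKM in vehicle and at 613, 1842, 1733 and 934 FPKM in anti-PD1 tumors. Vehicle tumor 1 was higher than anti-PD1 tumors 1 and 4, and the log2 fold change was 1.01 (SE 0.49, limma adjusted p = 0.316). Psmb8, a subunit of the immunoproteasome that cuts peptides for MHC class I, ranged from 1.53 to 42.0 FPKM in vehicle and from 14.3 to 87.1 FPKM in anti-PD1 tumors and was the highest of its list (log2 fold change 2.23, limma adjusted p = 0.195). Of the 16 class I genes, all were positive, 9 had an unadjusted limma p under 0.05, 0 were called, 0 separated the groups and the median was 1.08. H2-Aa, a chain of MHC class II on professional antigen-presenting cells, was at 76.2, 36.0, 7.53 and 10.3 FPKM in vehicle and at 62.5, 182, 205 and 104 FPKM in anti-PD1 tumors. Its log2 fold change was 2.46 (SE 0.71, limma adjusted p = 0.104), and that of its partner H2-Ab1 was 2.64 (limma adjusted p = 0.0799). Of the 11 class II genes, all were positive, 8 had an unadjusted limma p under 0.05, 0 were called and the median was 1.90. Without vehicle tumor 1, 6 of the 11 were called.

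**Figure D4:**
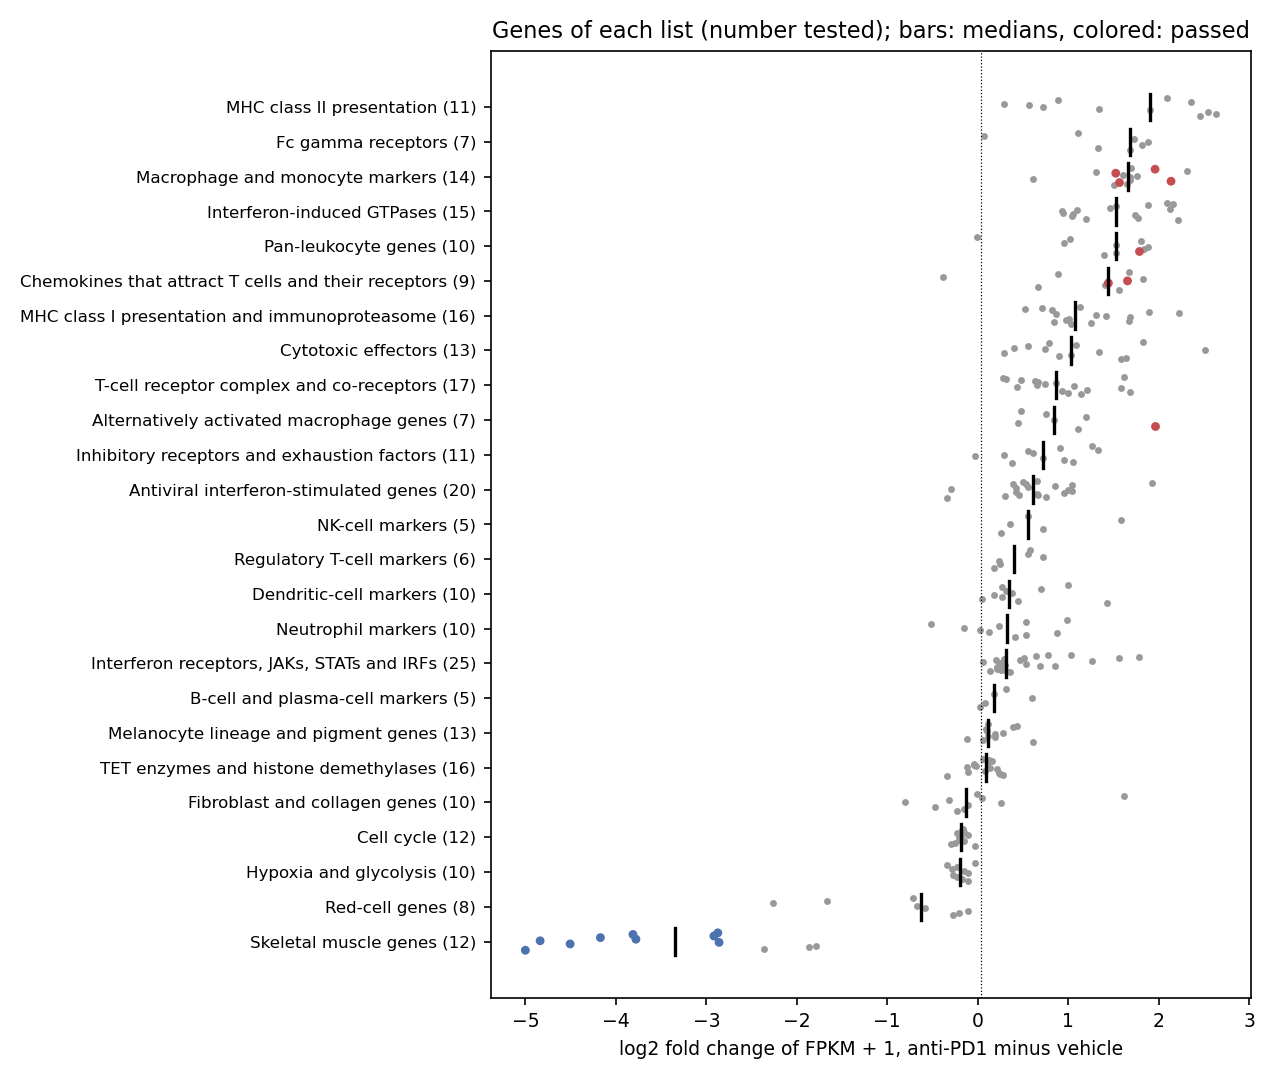
Log2 fold change of FPKM + 1 (anti-PD1 minus vehicle, x axis) of every tested gene of 25 lists, with the number of genes tested in brackets, the list median as a black bar and the median of all genes (0.03) as a dotted line. Colored genes passed at an adjusted p under 0.05 (red higher, blue lower) and are found in the macrophage, pan-leukocyte, chemokine, alternatively activated macrophage and skeletal muscle lists, while the MHC class II median of 1.90 is the highest without a call.

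Skeletal muscle genes were lower in anti-PD1 tumors and gave the largest falls among the called genes. All 12 genes of the list separated the groups, 9 were called, and the median log2 fold change was -3.35. The 10 genes with the largest called fall were Acta1, Tnnt3, Mb, Car3, Myl1, Pvalb, Tnnc2, Tpm2, Tnni2 and Atp2a1, which encode muscle actin, troponin, myosin and tropomyosin chains, myoglobin, carbonic anhydrase 3, parvalbumin and the calcium pump of muscle. Acta1 was at 19.1, 18.1, 24.9 and 281 FPKM in the vehicle tumors and at 0.22, 0.18, 0.34 and 0.39 FPKM in the anti-PD1 tumors. Vehicle tumor 4 was more than 10-fold above the other vehicle tumors, yet all 4 vehicle tumors were far above every anti-PD1 tumor. The log2 fold change was -5.00 (SE 0.90, limma adjusted p = 0.0322). Tnnt3 was at 14.7, 13.8, 20.3 and 164 FPKM in vehicle and at 0, 0.07, 0.07 and 0.07 FPKM in anti-PD1 tumors, again with vehicle tumor 4 highest and a log2 fold change of -4.84 (SE 0.89, limma adjusted p = 0.0334). The log2 fold changes of the other 8 lay between -4.76 and -3.40.

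Summed over the 12 muscle genes, the vehicle tumors held 103, 106, 139 and 1259 FPKM and the anti-PD1 tumors 5.31, 5.12, 7.13 and 5.88 FPKM. Without vehicle tumor 4 the list median was -2.66 and 0 of the 12 were called, and 0 were also called without vehicle tumor 3 or without anti-PD1 tumor 2, 3 or 4. The same vehicle tumor 4 had the highest sum of fibroblast and collagen genes, 43.9 FPKM against 8.44 to 16.4 FPKM in vehicle tumors 1 to 3 and 12.8 to 28.5 FPKM in anti-PD1 tumors. It also had the highest level of the matrix gene Dcn, 7.19 FPKM against 0.42 to 0.57 FPKM in the other vehicle tumors. Whether these transcripts came from muscle beside the dissected tumors was not tested.

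Melanocyte lineage and pigment genes shifted by a small amount. Of 13 such genes, 12 were positive, 0 were called and the median log2 fold change was 0.12. An unadjusted limma p under 0.05 with a higher level was found for 4, beside 9.98% of all genes. All anti-PD1 tumors lay above all vehicle tumors for 4, beside 5% of all genes. The mean log2(FPKM + 1) of the list lay between 7.99 and 8.15 in vehicle and between 8.18 and 8.32 in anti-PD1 tumors, without overlap. Mitf, the master transcription factor of the lineage, was at 116, 137, 77.7 and 74.9 FPKM in vehicle and at 138, 166, 171 and 130 FPKM in anti-PD1 tumors. Anti-PD1 tumor 4 lay under vehicle tumor 2, and the log2 fold change of 0.61 (SE 0.18) was the highest of the list (limma adjusted p = 0.112). Mlana, which encodes the antigen MART-1, separated the groups at 795 to 1006 FPKM in vehicle and 1026 to 1168 FPKM in anti-PD1 tumors, but its log2 fold change of 0.28 did not pass (limma adjusted p = 0.214). Tyr, the rate-limiting enzyme of melanin synthesis, had a log2 fold change of -0.12 (limma adjusted p = 0.637). Over the whole list the sum lay between 9182 and 11071 FPKM in vehicle and between 10342 and 11650 FPKM in anti-PD1 tumors.

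Cell cycle and hypoxia genes were slightly lower in anti-PD1 tumors without passing. All 12 cell cycle genes were negative, 4 had an unadjusted limma p under 0.05, 1 separated the groups, 0 were called and the median was -0.18. Top2a, the topoisomerase of dividing cells, was at 58.4, 66.5, 66.2 and 65.4 FPKM in vehicle and at 43.1, 60.3, 56.2 and 50.3 FPKM in anti-PD1 tumors, a log2 fold change of -0.29 (SE 0.10, limma adjusted p = 0.166). Mki67, the proliferation marker Ki-67, ranged from 7.61 to 16.5 FPKM in vehicle and from 5.04 to 20.6 FPKM in anti-PD1 tumors and overlapped fully, and its log2 fold change of -0.04 turned to 0.14 without vehicle tumor 1, 0.09 without vehicle tumor 2 and 0.29 without anti-PD1 tumor 1. All 10 hypoxia and glycolysis genes were negative, 3 had an unadjusted limma p under 0.05, 3 separated the groups, 0 were called and the median was -0.20. Over all genes, 6.6% were lower at an unadjusted limma p under 0.05 and 3.61% separated the groups with lower values. The mean log2(FPKM + 1) of the hypoxia list lay between 8.16 and 8.21 in vehicle and between 7.88 and 8.10 in anti-PD1 tumors, without overlap. Bnip3, a mitophagy gene induced by low oxygen, was the lowest of the hypoxia list, at 305 to 365 FPKM in vehicle and 258 to 286 FPKM in anti-PD1 tumors (log2 fold change -0.34, limma adjusted p = 0.0876). The TET enzymes and histone demethylases, which use α-KG as a cofactor, had a median of 0.10 over 16 genes, 1 gene with an unadjusted limma p under 0.05 and 0 calls. Tet1 was the lowest with a log2 fold change of -0.34 (limma adjusted p = 0.126), beside 0.28 for Tet2 and 0.25 for Tet3.

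Other cell types were weakly represented. Among 10 dendritic-cell genes, limma called 0, 3 had an unadjusted p under 0.05 and the median was 0.35, with Itgax (CD11c), which macrophages also express, the highest at 1.43. Of 6 regulatory T-cell genes and 5 NK-cell genes, limma called 0, 1 in each had an unadjusted p under 0.05 and the medians were 0.40 and 0.55. All anti-PD1 tumors lay above all vehicle tumors for 2 of the former and 3 of the latter, beside 5% of all genes. This held for 1 dendritic-cell gene and 1 B-cell gene. Foxp3, the factor that defines regulatory T cells, was at 0.10 to 0.45 FPKM in vehicle and at 0.22 to 0.69 FPKM in anti-PD1 tumors, and the NK-cell receptor gene Ncr1 was at 0.58 FPKM or less in all 8 tumors. For 5 B-cell genes the median was 0.18, with 0 genes called and 0 with an unadjusted limma p under 0.05. S100a8, a calcium-binding protein abundant in neutrophils, was at 5.60, 7.69, 11.8 and 14.1 FPKM in vehicle and at 9.65, 36.4, 3.79 and 17.2 FPKM in anti-PD1 tumors, with anti-PD1 tumor 2 highest and anti-PD1 tumor 3 lowest of the 8. Its log2 fold change was 0.41 (limma adjusted p = 0.753) and turned to -0.07 without anti-PD1 tumor 2. Of the 10 neutrophil genes, 0 were called, 1 had an unadjusted limma p under 0.05 and 3 separated the groups, all higher after anti-PD1. Csf3r was at 1.99 to 3.46 FPKM in vehicle and at 3.88 to 8.25 FPKM in anti-PD1 tumors (log2 fold change 0.87, limma adjusted p = 0.126).

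Red-cell genes were lower in the median (-0.63 over 8 genes, 3 with an unadjusted limma p under 0.05, 0 called). Slc4a1, the anion exchanger of the red-cell membrane, was at 6.04, 3.18, 30.8 and 29.5 FPKM in vehicle and at 2.84, 1.57, 0.91 and 1.85 FPKM in anti-PD1 tumors (log2 fold change -2.26, limma adjusted p = 0.0543). Vehicle tumors 3 and 4, which had the least leukocyte RNA, had the most Slc4a1. The 10 fibroblast and collagen genes had a median of -0.13, 1 with an unadjusted limma p under 0.05 and 0 called. The tested genes of endothelium (4), keratinocytes (2) and adipocytes (1) had medians of 0.27, 0.28 and 0.95 with 0 calls, and most markers of these 3 types did not reach the filter, among them Cdh5, Krt14 and Adipoq.

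**Figure D5:**
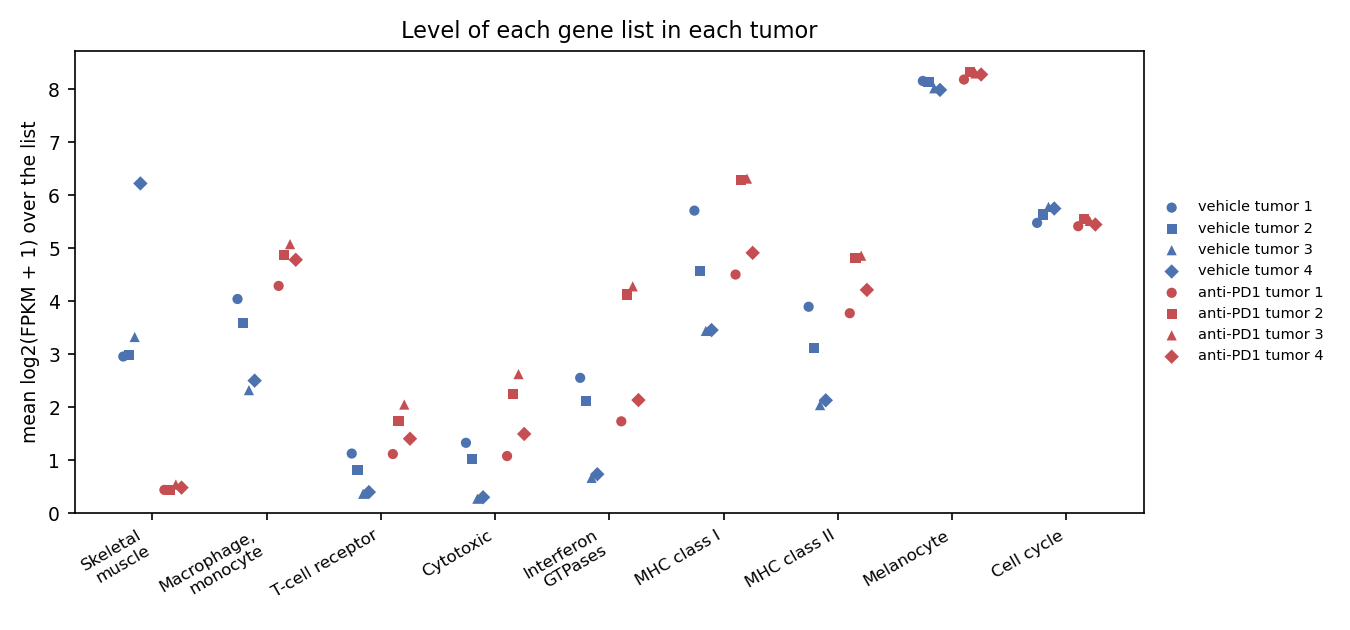
Mean of log2(FPKM + 1) over the genes of 9 lists (y axis) in each tumor, vehicle in blue and anti-PD1 in red, with 1 symbol per tumor. Macrophage levels of all anti-PD1 tumors lie above all vehicle tumors, T-cell, interferon and MHC levels are highest in anti-PD1 tumors 2 and 3 and lowest in vehicle tumors 3 and 4, vehicle tumor 4 stands alone in muscle genes, and melanocyte and cell cycle genes lie close together.

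The spread between tumors was close in both groups over all genes. The median SD of log2(FPKM + 1) was 0.167 in vehicle and 0.155 in anti-PD1 tumors, and 45.9% of genes had the larger SD in anti-PD1 tumors. For 13 of the 15 interferon-induced GTPases and 11 of the 13 cytotoxic genes the SD was larger in the anti-PD1 group, whereas for 12 of the 14 macrophage markers and all 12 muscle genes it was larger in the vehicle group. The 5 genes with the largest SD over the vehicle tumors were Rps27rt, Myl1, Car3, Psmb8 and Mb, a ribosomal protein retrogene that may share reads with its parent gene, 3 muscle genes and an immunoproteasome gene. As a description of all 12850 genes, which are not independent replicates, Pearson's r between tumors was 0.971 to 0.993 within vehicle, 0.977 to 0.993 within anti-PD1 and 0.948 to 0.988 between the groups. The closest pair of vehicle tumors was 3 with 4 and the closest pair of anti-PD1 tumors was 1 with 4 (both 0.993). Vehicle tumors 1 and 2 correlated with the anti-PD1 tumors at 0.977 to 0.988, within the range found inside the anti-PD1 group, and vehicle tumor 4 correlated with anti-PD1 tumors 2 and 3 at 0.948 and 0.950.

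Whether anti-PD1 acted alike with and without α-KG was examined by the interaction in the same limma fit, the effect of anti-PD1 in α-KG-treated tumors minus its effect alone. It was called for 1429 genes (11.1%), 1027 with a higher effect under α-KG (7.99%) and 402 with a lower effect (3.13%). This balance depended on scaling, with 389 higher and 633 lower after each tumor was centered on its median. The number was 2362 without anti-PD1 tumor 2, 789 without anti-PD1 tumor 1 and 699 without anti-PD1 tumor 4. The interaction uses the same anti-PD1 and vehicle tumors as the comparison above, so the group means are given side by side. Thbs1 had means of 6.82 FPKM in vehicle, 35.6 FPKM in anti-PD1, 126 FPKM in α-KG and 13.3 FPKM in α-KG + anti-PD1 tumors, an interaction of -5.50 (SE 0.52, limma adjusted p = 2.08e-05). Cd14 followed with means of 4.10, 21.7, 232 and 12.7 FPKM in the same order of groups and an interaction of -6.27 (limma adjusted p = 3.08e-05). Of the 10 neutrophil markers, 9 had a called lower effect under α-KG, and of the 14 macrophage markers 3 did. The neutrophil markers were led by S100a8 with an interaction of -6.09 (limma adjusted p = 0.00057). Its means were 9.8, 16.8, 713 and 16.8 FPKM in the same order of groups, so that the α-KG tumors alone were high. After anti-PD1 without α-KG the log2 fold change of S100a8 was 0.41 and was not called. Limma called 0 interactions among the 17 T-cell, 13 cytotoxic, 15 GTPase, 16 MHC class I and 11 MHC class II genes, of which 1, 4, 7, 1 and 0 had an unadjusted p under 0.05. All 12 muscle genes had a called positive interaction, with Acta1 at means of 85.9, 0.282, 0.34 and 9.65 FPKM, so that muscle RNA was measured in the vehicle and the α-KG + anti-PD1 tumors and was near 0 in the others.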

How the data were processed

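RNA of 16 tumors was sequenced by the authors after poly(A) capture on a DNBSEQ instrument. The submitters' processing notes name HISAT, Bowtie2 and the build mm10. The program that computed the values, any filter and any normalization between tumors are not given in the sources used here. The authors deposited FPKM values with 2 decimals for 18929 genes and 16 tumors, all of which were used. Groups were taken from the treatment labels. A gene was tested where it reached 0.5 FPKM in at least 4 tumors (12850 genes). Values were changed to log2(FPKM + 1), which understates fold changes near or below 1 FPKM. The model held a mean for each of the 4 groups over all 16 tumors (limma 3.58.1 in R 4.3.3, eBayes with a trend), with Benjamini-Hochberg adjustment over the genes tested and a threshold of 0.05. The tumors of a group are described as independent. Each p-value sets a difference between group means against the spread between tumors within groups, estimated over all 4 groups. The column headers name FPKM, while the column labels of a heatmap in the study name TPM. The headers were followed. No count test was run, since the values are not counts, and the depth is unknown.

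The members and the gene lists were chosen with earlier results of these data known, and a few lists share genes (Ccl5, Gzma, Eomes, Fcgr1, Thy1). Named genes were the key genes of the lists, the 10 higher and 10 lower called genes with the largest fold change among those without overlap and with a mean of 1 FPKM or more on the higher side, the 5 genes with the largest SD in each group, and the extremes of the lists. Genes of the lipid, cholesterol and heat shock lists (3 lists added to the 29 fixed), Cd53, Cd68, Tyrobp, C5ar1, Ccl3, Ccl4, Cck, Ppargc1a, Rbm3 and Kif20a were named after their values were seen. On simulated data with 12850 genes, 200 of them changed, the fit for anti-PD1 against vehicle called 90% of genes changed by 1 and 100% of genes changed by 2 on the log2 scale, and 5.94% of its calls were unchanged genes. In the tumors, 45 of the 333 genes higher by 1 or more on the log2 scale were called. Of the 59 genes lower by as much, 18 were called. H2-Ab1 (2.64) and Nkg7 (2.51) were higher by more than 2 and were not called. The simulation drew values independently for each gene and changed genes picked at random. Over all genes the median 95% confidence interval reached 0.26 to either side, while the SE alone was 0.70 for H2-Ab1 and 0.76 for Nkg7. The shares of 90% and 100% therefore do not describe genes with such spread, and whether they hold for these tumors was not tested. Alternatives were another pseudocount, filters, scalings, weights, a replicate block and leaving out each tumor in turn. Python 3.11.15 with pandas 2.3.3, numpy 2.4.6 and matplotlib 3.10.9 made the summaries, promoter counts and plots. Of the gene IDs, 99.7% were found in RefSeq. Results for some genes are not reported here.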

Additional observations from a re-analysis of the deposited data

Results flagged for a closer look

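Among 234 pairs of a named gene and a group of 4 tumors, 23 (9.83%) had 1 tumor far from the other 3. The gap passed Dixon's 95% critical value as a share of the group's whole range on the log2(FPKM + 1) scale. For independent groups chance gives about 1 in 20. The share cannot be set against that rate, since some genes were named for a large SD or a large fall. Muscle genes also moved together, and some values lay near 0. Vehicle tumor 4 accounted for 12 of the 23. It was the highest for the muscle genes Acta1 (gap 0.887 of the range), Tnnt3 (0.851), Mb (0.908), Car3 (0.874), Myl1 (0.863), Pvalb (0.848), Tnnc2 (0.848), Tpm2 (0.830), Tnni2 (0.862), Atp2a1 (0.884) and Myh4 (0.867) and for the matrix gene Dcn (0.943). Vehicle tumor 1 stood apart as the lowest for Tyr (0.866) and Top2a (0.866) and as the highest for Pmel (0.869) and Slc2a1 (0.866). Vehicle tumor 2 was the highest for Ncr1 (1.00), at which the other vehicle tumors were listed at 0. Among the anti-PD1 tumors, tumor 1 was the lowest for Tyrobp (0.841), Ccl4 (0.870), Ppargc1a (0.843) and Tnnt3 (1.00), and tumor 4 was the lowest for Myl1 (0.844) and the highest for Myh4 (1.00), and these 3 muscle genes were at 0.21 FPKM or less in all 4 anti-PD1 tumors.

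The effect of anti-PD1 differed with and without α-KG, by the limma interaction at an adjusted p under 0.05, for 45 of the 117 named genes that were tested. Over all genes tested the share was 11.1%. Many of these genes were named for a large difference between anti-PD1 and vehicle tumors. That difference enters the interaction with the opposite sign, so the shares cannot be compared and the signs below are partly set by the choice of genes. In 26 genes the effect was lower under α-KG. They were the myeloid, lipid and matrix genes Cd14 (-6.27), S100a8 (-6.09), Il1b (-5.58), Thbs1 (-5.50), Il1rn (-4.96), Clec4d (-4.76), Ccl4 (-4.19), Ccl3 (-4.18), Clec4n (-3.34), Csf3r (-3.23), Spp1 (-3.20), Arg1 (-2.89), Cd53 (-2.71), C5ar1 (-2.61), Entpd1 (-2.57), Ccl6 (-2.35), Tyrobp (-2.15), Cd36 (-1.26), Abca1 (-1.19), Plin2 (-1.14), Ctsl (-0.93) and Nceh1 (-0.49), with the heat shock genes Hspa1a (-3.46) and Hsph1 (-0.83), Cck (-1.81) and Mlana (-0.56). In 19 genes it was higher under α-KG. They were the muscle genes Acta1 (6.98), Tnnt3 (6.75), Mb (6.65), Pvalb (6.16), Car3 (6.10), Myl1 (6.08), Tnnc2 (5.95), Tpm2 (5.52), Tnni2 (5.19), Atp2a1 (5.12) and Myh4 (2.26), the cell cycle genes Mki67 (1.55), Top2a (0.63) and Kif20a (0.58), the sterol genes Hsd17b7 (0.74), Nsdhl (0.56) and Fdft1 (0.47), and Cxcr3 (0.90) and Rbm3 (0.74). All values are differences of log2 fold changes.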

How the results depend on the processing

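The 96 calls for anti-PD1 against vehicle kept their direction under each of 19 alternatives (80 of 80 still tested under the stricter filter). Since their groups did not overlap, the direction could have turned only where the values were rescaled. The number of calls moved, and the cause was not tested. The counts of called, higher and lower genes were 312, 232 and 80 with a pseudocount of 0.1, 5, 3 and 2 with every gene above 0 tested, 201, 134 and 67 after centering on tumor medians, 29, 15 and 14 at the same FPKM sum, 4261, 2515 and 1746 with array weights (0.28 for vehicle tumor 1 and 3.74 for vehicle tumor 3), 17, 11 and 6 with robust eBayes, and 0, 0 and 0 with only the 8 tumors compared (2137 at an unadjusted limma p under 0.05). With 1 FPKM in 8 tumors required, 77 genes were called, 58 higher and 19 lower. Leaving out 1 tumor gave 0 to 885 calls, 0 to 530 higher and 0 to 355 lower. Genes without overlap numbered 724 at the same FPKM sum and 1201 to 3178 with 1 tumor left out.

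With the replicate number as a block, limma called 0 genes (0 higher, 0 lower, 1971 at an unadjusted p under 0.05) and 1010 interactions. The numbers were not taken as pairing the tumors, since deviations from the group means correlated at -0.642 to 0.411 over 24 pairs of same-numbered tumors (-0.642 to 0.23 for the 4 vehicle and anti-PD1 pairs).

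The interaction was called for 2394 genes (2110 higher) at the same FPKM sum and for 3350 (2401 higher, 949 lower) with array weights. The number with a higher effect was 569 after quantile normalization and 389 after centering, which gave 633 lower. With 1 of the 16 tumors left out, the interaction was called for 699 to 2362 genes, 422 to 1865 higher and 277 to 497 lower.

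The sign turned for 5 named genes that were not called. Cd79a was at -0.10 after quantile normalization, -0.057 after centering and -0.010 with array weights, Mki67 at 0.25 and Rps27rt at -0.58 with array weights. With 1 tumor left out, Cd79a lay between -0.10 and 0.093, S100a8 between -0.074 and 0.92, Mki67 between -0.33 and 0.29, Col1a1 between -0.48 and 0.11 and Rps27rt between -0.46 and 1.47. The median of all genes stayed between -0.045 and 0.061 on the log2 scale. Without counts, the depth that limits values under 1 FPKM is unknown.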

Other observations

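Genes of cholesterol synthesis, a list made after the values were seen, were lower in anti-PD1 tumors in 20 of 21 cases, with 12 separating the groups, 14 with an unadjusted limma p under 0.05, 3 called (Fdft1, Nsdhl and Hsd17b7) and a median log2 fold change of -0.28. Fdft1, the squalene synthase, was at 48.7, 47.2, 49.9 and 47.6 FPKM in vehicle and at 38.4, 34.8, 35.8 and 35.8 FPKM in anti-PD1 tumors. The groups stood apart with little spread inside each, and its log2 fold change of -0.41 (SE 0.06) had a limma adjusted p of 0.0184. Hsd17b7, which acts later in the same pathway, fell from 7.47 ± 1.19 to 4.36 ± 0.50 FPKM (SD, n = 4). Rbm3, an RNA-binding protein induced by cold, fell from 510.4 ± 70.3 to 321 ± 28.8 FPKM, by 0.66 on the log2 scale (limma adjusted p = 0.0203), and the mitotic kinesin Kif20a fell by 0.43 on the log2 scale.

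Of 12 heat shock genes, likewise listed after the values were seen, 8 had an unadjusted limma p under 0.05 with a higher level and 2 were called. Hspa1a, an inducible chaperone of the HSP70 family whose near-identical copy Hspa1b may share its reads, was at 4.30, 4.02, 1.51 and 2.01 FPKM in vehicle and at 10.2, 15.0, 8.67 and 14.1 FPKM in anti-PD1 tumors. All anti-PD1 tumors were above all vehicle tumors, with a log2 fold change of 1.76 (SE 0.28, limma adjusted p = 0.022). Hsph1 rose by a log2 fold change of 0.51. Ppargc1a, a coactivator of mitochondrial gene programs, was at 24.9, 29.5, 24.1 and 22.8 FPKM in vehicle and at 35.0, 43.8, 45.0 and 43.3 FPKM in anti-PD1 tumors. Its log2 fold change was 0.70 with a limma adjusted p of 0.0184, the smallest of the comparison, which Fdft1 and other genes shared. Cck, the gene of the peptide cholecystokinin, rose from 105 ± 39.4 to 335 ± 128 FPKM. None of these 9 genes was called without vehicle tumor 3 or 4 or without anti-PD1 tumor 2, 3 or 4.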
